A study of Mus musculus with 36 samples.

Results

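The Myc network was described through the methylation of its DNA in 36 samples of B3 cells, a pre-B line from mouse. The 10 genes were Myc, Mycn, Mycl, Max, Mxd1, Mxd3, Mxd4, Mxi1, Mnt and Mga. Every CpG cluster that overlapped one of these genes or the 5000 bp on either side (GENCODE M21, GRCm38) was taken as a member, and a cluster was a run of listed positions at most 100 bp apart. This gave 23 of the 16734 clusters with a value in every sample, or 1585 listed positions, of which 1267 had a value in all 36 samples. Of the member clusters 21 came within 1000 bp of an annotated start of their gene and were called promoter clusters, and 2 lay outside, at the starts of neighbouring genes. Each of the 10 genes had at least 1 promoter cluster.

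Methylation was measured by reduced representation bisulfite sequencing (RRBS), in which DNA is cut with MspI, treated with bisulfite and sequenced, so that CpG-rich parts of the genome are read. Cells of the Ikaros series carried an MSCV retroviral vector for HA-tagged Ikaros fused to ERt2, with IRES-GFP. Cells of the Control series carried the same vector with ERt2 but without Ikaros, and both kinds of cell were sorted for GFP. 4-hydroxytamoxifen (4-OHT) moves the fusion protein into the nucleus, and samples were taken at 0, 2, 6, 12, 18 and 24 h with 3 replicates in each of the 12 conditions. The labels give 0.5 µM 4-OHT for every sample, 0 h included, while the study's methods describe the 0 h cells as untreated. The study's methods also state that the 0 h cells were obtained separately. The labels give 0 h replicates 1 and 3 the same batch number as their later time points, and only replicate 2 a batch of its own at 0 h. A separate collection and the time after 4-OHT cannot be told apart in a comparison with 0 h. The series are separately transduced cells of the same line, so a difference that the populations carried before 4-OHT and an effect of Ikaros cannot be told apart by the comparison of the series alone.

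Myc, Mycn and Mycl encode basic helix-loop-helix leucine zipper proteins that bind E-box DNA as dimers with Max and drive growth and proliferation. Mxd1, Mxd3, Mxd4, Mxi1 and Mnt pair with Max as well, bind the same sites and recruit Sin3 corepressors, and Mga is a large T-box protein with its own Max-binding domain that acts in a Polycomb complex. In pre-B cells Ikaros shuts down Myc transcription as the cells leave the cycle. CpG islands at active starts are usually free of methylation, whereas CpG methylation within transcribed exons is common.

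The sequences that follow were chosen because they lie in the coding-exon clusters that were called between the series (Mycn, Mycl) or because they show promoters that were almost free of methylation (Max, Mxd1). Capitals mark CG dinucleotides, and each run reads 5′ to 3′ on the strand of the gene. The Mycn stretch lies in its coding exon on the minus strand, at chr12:12939922-12940221, and is the 300-base window of that cluster with the most CGs read in every sample. The Mycl stretch is the whole coding-exon cluster on the plus strand, at chr4:122996735-122996970. The Max (chr12:76962314-76962498) and Mxd1 (chr6:86669235-86669409) stretches lie upstream of their starts on the minus strand and came from RefSeq, GRCm38.p6, and all coordinates are on GRCm38.
Mycn coding exon: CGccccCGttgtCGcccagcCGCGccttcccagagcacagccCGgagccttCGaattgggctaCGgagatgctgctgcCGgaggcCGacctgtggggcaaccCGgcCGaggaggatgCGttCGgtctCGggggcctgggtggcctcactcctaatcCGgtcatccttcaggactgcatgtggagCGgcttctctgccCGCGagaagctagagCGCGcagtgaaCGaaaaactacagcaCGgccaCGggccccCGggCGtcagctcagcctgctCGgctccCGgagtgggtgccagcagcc
Mycl coding exon: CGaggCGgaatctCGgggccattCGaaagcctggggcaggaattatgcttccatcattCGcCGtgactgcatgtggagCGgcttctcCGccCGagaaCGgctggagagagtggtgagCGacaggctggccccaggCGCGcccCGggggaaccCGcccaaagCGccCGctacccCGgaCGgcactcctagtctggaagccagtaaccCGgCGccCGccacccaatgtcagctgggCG
Max promoter: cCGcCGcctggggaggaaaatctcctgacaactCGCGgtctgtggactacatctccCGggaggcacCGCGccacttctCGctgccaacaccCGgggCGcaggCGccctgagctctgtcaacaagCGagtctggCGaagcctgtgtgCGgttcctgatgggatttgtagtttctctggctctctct
Mxd1 promoter: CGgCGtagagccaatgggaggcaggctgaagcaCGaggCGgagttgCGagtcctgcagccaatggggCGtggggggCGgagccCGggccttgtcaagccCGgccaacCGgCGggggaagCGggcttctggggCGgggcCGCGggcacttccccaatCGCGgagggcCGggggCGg

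In the Mycn stretch 16 of the 28 CGs had a value in every sample, and all 16 were higher in the Ikaros series. Their mean levels ran from 5.19% to 9.17% in the Ikaros series and from 1.26% to 2.63% in Control. In the Mycl stretch 15 of the 23 CGs were read in every sample, with levels from 92.2% to 97.1% in the Ikaros series and from 90.02% to 94.5% in Control. The longest run of letters that both stretches share is 23 bases long, gactgcatgtggagCGgcttctc, and holds 1 CG. That CG was methylated at 7.69% (Ikaros) and 2.40% (Control) in Mycn, and at 94.8% and 93.9% in Mycl. The same letters thus carried opposite methylation states in the paralogs. In the Max stretch the 6 CGs read in every sample lay between 0.248% and 0.461% in both series, and in the Mxd1 stretch the 14 CGs lay between 0.120% and 0.736%. All 15 Mycl, all 6 Max and all 14 Mxd1 CGs were higher in the Ikaros series too, so this direction was not particular to Mycn. Over the whole Max cluster 40 of 66 CGs read in every sample were higher, and over the whole Mxd1 cluster 77 of 87.

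The levels were read from bulk DNA, so a few cells methylated at every CG and many cells methylated at few CGs cannot be told apart. The depth behind a level is unknown, since the tables give no reads, and the spread between samples is the only measure of error. Values were empty for 0.110% to 11.6% of the positions in a Control library and for 0.139% to 3.18% in an Ikaros library. In Control 27.9% ± 4.89 (SD, n = 18) of a library's values were exactly 0 or 1, and in the Ikaros series 36.2% ± 7.63. The series thus also differed in this share. Whether it reflects the libraries or methylation itself cannot be told apart here, and a fit with both shares as covariates is given as an alternative.

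A set of 3 libraries stood apart. Control 0 h replicate 1 had 11.6% empty values, and Ikaros 24 h replicate 2 had 59.1% of its values at exactly 0 or 1. Their median correlation with the other libraries was 0.985 for each, against 0.989 to 0.993 for the rest. Control 24 h replicate 2 correlated like the others, but over the 618 clusters outside the Myc network that were called higher in the Ikaros series its mean level was 61.8%, between the other Control libraries (57.8% to 59.2%) and the Ikaros libraries (63.5% to 65.3%). This library was thus set apart by its methylation levels, so a series difference that grows when it is left out is no support for that difference. The other 2 were set apart by their empty and extreme values and by their correlation with the other libraries. Results that turn on these libraries are given without the 2, without all 3, or both. The B3 label was checked on promoter clusters of marker genes. The pre-B genes Vpreb1, Pax5 and Ebf1 lay at 0.337%, 0.982% and 0.205%, while clusters of Lck (T cell), Cebpa (myeloid) and Myod1 (muscle) lay between 79.6% and 98.2%, and Klf1 (erythroid) lay at 1.47%. The other 7 pre-B and 10 non-B marker genes had no promoter cluster.

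Most of the network was unmethylated. The mean level over all samples was under 1% in 17 of the 23 clusters and under 10% in 20, which is 87.0% against 48.6% of all clusters. Of the 13135 promoter clusters of protein-coding genes 58.4% lay under 10% and 32.4% over 90%. The members above 10% belonged to Mycl and Mga. In falling order came the Mycl coding exon (94.0%), the Mycl start (56.0%), the Mga start (47.0%), the Mycn coding exon (5.13%), a Mycn exon nearer to the start (3.33%) and the Mycn start (1.28%). The Mycl start and the Mga start overlapped in the range of their samples, as did the 3 Mycn clusters. The remaining 17 clusters lay between 0.205% and 0.979% and could not be ordered beyond their spread.

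**Figure D1:**
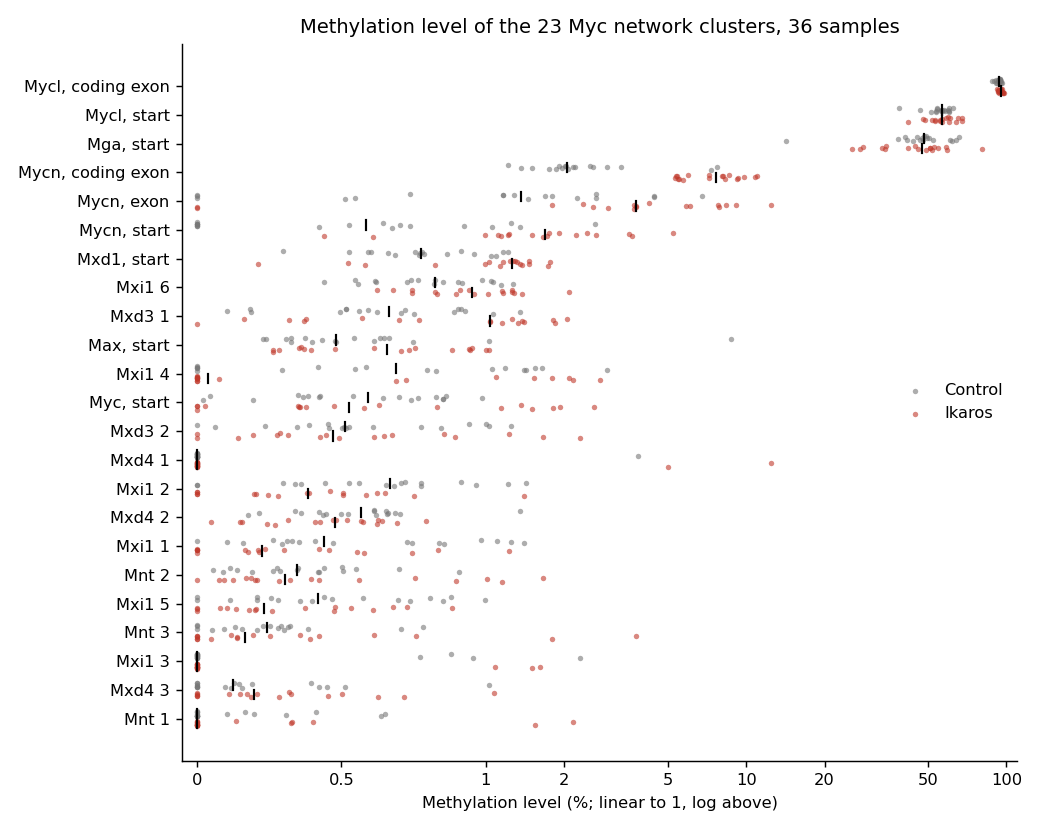
Methylation level in percent (horizontal axis, linear to 1% and logarithmic above) of each of the 23 Myc network clusters in every sample; grey points are Control and red points Ikaros samples, and black bars are medians of 18. The coding exon of Mycn separates the series with 2 Control samples at 7.30% and 7.71%, while the clusters at the bottom lie near 0 in both.

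Mycn, the paralog that drives progenitor growth and is amplified in neuroblastoma, showed the largest difference of the network between the series. This held on M-values and in percentage points over all samples. Without the 2 libraries set apart by empty and extreme values the Mga means lay further apart in points, at 43.7% (Ikaros) and 50.2% (Control). The Mycn coding-exon cluster (chr12:12939523-12940337, 72 positions, 1578 to 2392 bp inside the gene and 279 bp from an alternative start) ranged from 1.21% to 7.71% in Control, with a median of 2.05%. In the Ikaros series it ranged from 5.34% to 11.0%, with a median of 7.64%. Of the Control samples 16 lay below every Ikaros sample, and the series overlapped only through Control 0 h replicate 1 at 7.30% and Control 24 h replicate 2 at 7.71%, both among the libraries that stood apart. The means were 7.57% ± 1.95 and 2.69% ± 1.83 (SD, n = 18 each), a difference of 4.88 percentage points or 2.82-fold. On M-values, the log2 ratio of methylated to unmethylated share with levels limited to 1% to 99%, the difference was 1.46 (95% interval 1.16 to 1.76, limma adjusted p = 2.82e-08). Here and below, the p of the series difference treats the 18 samples of a series as independent. It measures the spread between samples, not between separately transduced populations.

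Without the 2 libraries set apart by empty and extreme values the means were 7.37% ± 1.81 and 2.42% ± 1.46 (n = 17 each), and 16 of the 17 Control samples lay below every Ikaros sample (limma adjusted p = 4.57e-08). That setting was chosen after the data were seen. Within replicate number 1, 2 and 3 the coding exon was higher in the Ikaros series by 4.45, 5.87 and 4.33 percentage points, and by time point by 2.51 points at 0 h (4.19 points without Control 0 h replicate 1) and by 4.44 to 6.03 points from 2 h to 24 h. The call held under all 10 alternatives that could test this cluster, the covariates among them, and without each library and each replicate number in turn (adjusted p = 0.000194 or less).

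The means of the other Mycn clusters over all 18 samples were also higher in the Ikaros series. The cluster at the Mycn start (chr12:12941729-12941855, 23 positions, untranslated, at the start) ranged from 0 to 2.62% in Control (median 0.585%) and from 0.439% to 5.24% in the Ikaros series (median 1.68%). The means were 0.606% ± 0.684 and 1.94% ± 1.21, and the difference on M-values was 0.72 (0.38 to 1.07, limma adjusted p = 0.00665). Of the values at its 23 complete positions 53.1% were at or under 1%, the lower limit of the M-values. Exactly 0 were 42.5% of the Control and 10.9% of the Ikaros values. Here 8 Control samples lay below every Ikaros sample and 4 Ikaros samples above every Control sample. By time point the Ikaros mean was higher by 0.806 to 2.80 percentage points from 0 h to 18 h. At 24 h it was lower, at 0.885% against 1.11% in Control, and the Control mean was 0.352% without Control 24 h replicate 2. The different course of the series was not called (unadjusted p = 0.0481, adjusted p = 0.965). With the shares of empty and extreme values as covariates the call was lost (adjusted p = 0.141) while the difference stayed at 0.72. It was also lost without replicate 1 (difference 0.75, adjusted p = 0.0943) or 3 (0.64, adjusted p = 0.188).

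The Mycn cluster between them (chr12:12941187-12941595, 26 positions, in an exon) ranged from 0 to 6.74% in Control and from 0 to 12.5% in the Ikaros series, with medians of 1.37% and 3.77%. Its difference of 1.00 on M-values (0.33 to 1.66) did not pass the threshold (limma adjusted p = 0.0781), and its level rests on the 7 positions read in every sample. It passed without the 2 libraries (difference 1.12, adjusted p = 0.0342), without replicate 2 (1.33, adjusted p = 0.0214), and also when Control 6 h replicate 2, Control 12 h replicate 3, Control 24 h replicate 2, Ikaros 12 h replicate 2 or Ikaros 24 h replicate 2 was left out. Over all positions with a value the difference was 0.53 (adjusted p = 0.291). With the covariates the adjusted p was 0.358, and without replicate 1 or 3 it was 0.520 and 0.491. Across the Mycn gene, 45 of the 47 CGs read in every sample were higher in the Ikaros series. These CGs are smoothed within a cluster and are not independent. The gap between the means was widest 1800 bp inside the gene, at 9.17% and 1.26%, where the samples overlapped, from 0 to 50.7% and from 0 to 10.1%. Without the highest sample, Ikaros 0 h replicate 1, the Ikaros mean there was 6.72%, and the medians were 0.470% and 0.258%. At 2298 bp the means were 14.7% and 6.86%, with medians of 15.8% and 5.65%. The highest mean level was reached 2341 bp inside, at 17.8% and 12.1%, and the Control mean was 8.75% without Control 0 h replicate 1 at 68.4%. At 1614 bp, the first CG of the coding-exon cluster read in every sample, both series were near 0, at 0.0315% and 0.743%.

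**Figure D2:**
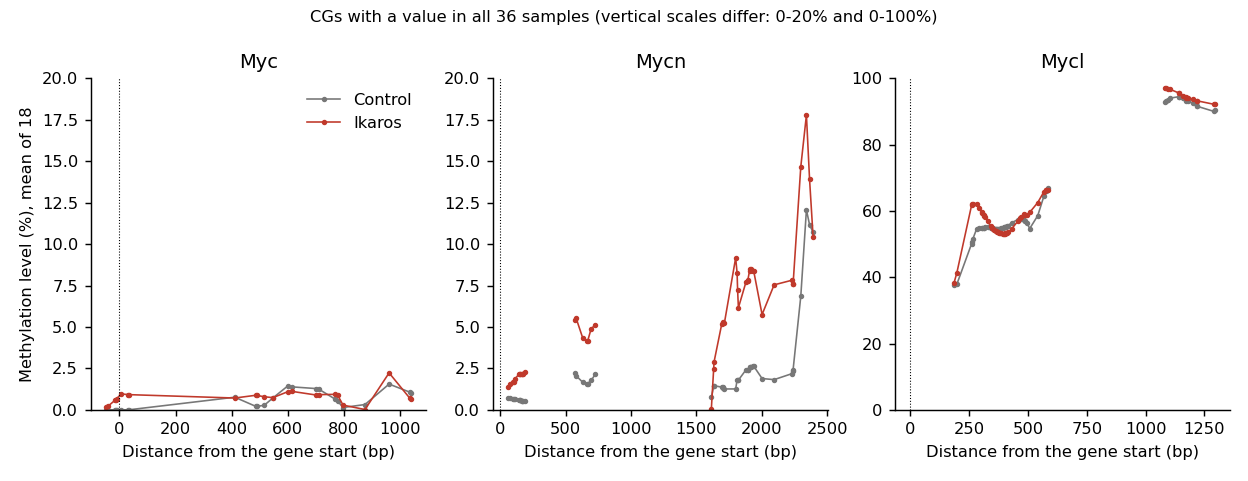
Mean methylation level in percent of CGs with a value in all 36 samples, against the distance from the gene start in bp, for Myc, Mycn and Mycl; grey is the mean of 18 Control and red of 18 Ikaros samples, and the Mycl panel has another vertical scale. Myc stays at or below 2.23% in both series, Mycn is higher in the Ikaros series at 45 of its 47 CGs, and Mycl lies between 37.5% and 66.9% in its start cluster and above 90% in its coding exon.

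Mycl, the paralog found amplified in small cell lung cancer, was the only gene of the 3 with a methylated start. Its start cluster (chr4:122995641-122996237, 101 positions, untranslated) ranged from 38.6% to 62.1% in Control (median 56.3%) and from 41.9% to 67.4% in the Ikaros series (median 56.6%). The series overlapped almost fully, and the difference on M-values was 0.13 (-0.12 to 0.39, adjusted p = 0.668). Along this cluster the level went up and down. Of the CGs read in every sample the lowest means lay 186 bp inside the gene, at 38.2% and 37.5% (Ikaros and Control). They were 62.2% and 51.5% at 266 bp, 53.2% and 54.9% at 393 bp and 66.4% and 66.9% at 584 bp. The gap was widest at 261 bp, at 61.8% and 50.1%, where the samples ran from 38.4% to 82.9% and from 33.9% to 64.1%. At the outermost upstream CG, 11 bp before the start, 33 samples had a value, with means of 57.0% and 34.1% and ranges of 10.5% to 100% and of 0 to 70.8%. From 0 h to 24 h the cluster mean went from 62.5% ± 3.50 to 52.5% ± 9.59 in the Ikaros series. On M-values this was -0.70 (-1.35 to -0.05, limma unadjusted p = 0.0351, adjusted p = 0.402). In Control the mean went from 56.9% ± 2.68 to 50.4% ± 10.3. Without the 3 libraries the 24 h mean was 48.6% in the Ikaros series, and the Control means were 58.1% and 56.3%.

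The Mycl coding-exon cluster (chr4:122996735-122996970, 29 positions) was methylated at 93.0% ± 1.97 in Control and at 94.9% ± 1.73 in the Ikaros series. The samples ranged from 88.3% to 95.8% (median 93.4%) and from 92.3% to 98.2% (median 95.3%). The difference of 1.88 percentage points passed the threshold narrowly, at 0.57 on M-values (0.23 to 0.91, limma adjusted p = 0.0411), with 5 Ikaros samples above every Control sample. Blocking on the replicate number gave an adjusted p of 0.0517 and blocking on the labels' batch 0.0567, with the difference unchanged at 0.57. Levels in place of M-values gave 0.0885. The difference was 0.48 with the covariates (adjusted p = 0.468) and 0.51 without the 2 libraries (adjusted p = 0.0959). Leaving out 1 library ended the call in 19 of 36 cases. Over all time points both coding exons thus lay higher in the Ikaros series, but at opposite ends of the scale and with calls of unequal stability.

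Myc itself, which sits in a CpG island, was unmethylated over its whole start. The cluster (chr15:61984900-61986447, 97 positions, over the start, with coding and untranslated sequence) ranged from 0.0226% to 0.986% in Control (median 0.592%) and from 0 to 2.61% in the Ikaros series (median 0.526%). The means were 0.554% ± 0.292 and 0.796% ± 0.766, and the difference on M-values was 0.11 (-0.08 to 0.30, limma adjusted p = 0.615). Of the values at its 33 complete positions 79.9% were at or under 1%, the lower limit of the M-values. Over all positions with a value the means were 0.451% and 0.490%, and the difference was 0.02 (adjusted p = 0.903). The difference was 0.06 without the highest sample, Ikaros 18 h replicate 2 at 2.61% (adjusted p = 0.789). At 0 h the Ikaros samples had 1.36%, 0.0294% and 0%, and at 24 h 0.474%, 0% and 0.357%. The Control samples had 0.850%, 0.366% and 0.384% at 0 h and 0.0453%, 0.763% and 0.349% at 24 h. The samples of all these conditions overlapped, and the 24 h minus 0 h difference was -0.11 on M-values in the Ikaros series (-0.61 to 0.38, adjusted p = 0.953) and -0.05 in Control (-0.55 to 0.44, adjusted p = 1).

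Max, the shared dimer partner, was unmethylated at its start (chr12:76961556-76962936, 128 positions). It ranged from 0.263% to 1.03% in the Ikaros series (median 0.659%) and from 0.228% to 1.03% in 17 Control samples. Control 0 h replicate 1 stood alone at 8.72%, and this was the library with the most empty values. The series difference was 0.01 on M-values (-0.14 to 0.16, adjusted p = 0.972), and 0.06 without the 2 libraries (-0.02 to 0.14, adjusted p = 0.525).

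Mga had the widest range of samples in percentage points, while on M-values the interval of the series difference was wider for the middle Mycn cluster. Its start cluster (chr2:119897161-119897391, 35 positions, over the start) ranged from 14.2% to 65.5% in Control (median 48.0%) and from 25.5% to 80.6% in the Ikaros series (median 47.4%). The lowest and the highest sample, Control 0 h replicate 1 and Ikaros 24 h replicate 2, are both among the libraries that stood apart. Without these 2 libraries the means were 50.2% ± 8.23 in Control and 43.7% ± 11.1 in the Ikaros series. The series difference was -0.13 on M-values (-0.65 to 0.40, adjusted p = 0.866), and -0.37 without them (-0.80 to 0.05, adjusted p = 0.413). Of the CGs read in every sample, all 16 were lower in the Ikaros series, by 1.39 to 2.87 percentage points, less than the spread between samples. From 0 h to 24 h the Ikaros means went from 37.7% ± 11.7 to 62.5% ± 15.6 (adjusted p = 0.332), and the Control means from 33.3% ± 17.1 to 48.5% ± 2.73 (adjusted p = 0.813). Without Ikaros 24 h replicate 2 the Ikaros mean at 24 h was 53.5%, 15.8 points above 0 h in place of 24.9. Without Control 0 h replicate 1 the Control mean at 0 h was 42.8%. No different course of the series was called here (adjusted p = 0.965).

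The Max-binding repressors were unmethylated. Mxd1 (chr6:86668729-86669612), a repressor of differentiating cells and the member with the most positions (163), ranged from 0.298% to 1.22% in Control (median 0.774%) and from 0.212% to 1.77% in the Ikaros series (median 1.25%). Its difference of 0.18 on M-values (0.05 to 0.31) missed the threshold (adjusted p = 0.109), and it passed without Ikaros 2 h replicate 1, Ikaros 6 h replicate 2 or Ikaros 24 h replicate 2, without replicate number 2 (0.26, adjusted p = 0.0306) and without the 2 libraries (0.0488). Without replicate number 1 the difference was 0.12 (adjusted p = 0.581), without number 3 it was 0.15 (adjusted p = 0.561), and with the covariates 0.20 (adjusted p = 0.336). Mnt, the most widely expressed of these repressors, had 3 clusters (chr11:74830213-74830511, chr11:74831256-74832338 and chr11:74837803-74838611) with Ikaros means of 0.272% to 0.500% and Control means of 0.138% to 0.365%. The Mxd4 promoter clusters (chr5:34187094-34187860 and chr5:34187990-34188236) had means of 0.445% and 0.285% in the Ikaros series and of 0.554% and 0.203% in Control. The Mxd3 promoter (chr13:55329355-55330120) had 0.636% and 0.580%. None of these clusters passed the threshold of the series difference. The clusters outside the genes lay at the starts of Prelid1 and Rab24 (near Mxd3, 0.975% and 0.667%) and of Haus3 and Poln (near Mxd4, chr5:34169432-34169802, with only 2 positions read in every sample). The latter was at 0 in all samples but 3, namely Ikaros 12 h replicates 2 and 3 at 5.00% and 12.5% and Control 0 h replicate 2 at 3.85%. Its different course was not called (unadjusted p = 0.0199, adjusted p = 0.879). Without Ikaros 12 h replicate 1 the different course and the change over time in the Ikaros series were called (adjusted p = 0.00836 and 0.00399), on those 2 positions and 2 samples.

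Mxi1, a repressor with several alternative starts, had 6 promoter clusters between chr19:53310681-53310931 and chr19:53329293-53330326, with means of 0.233% to 1.04%. The sixth, at the far end, differed by 0.10 between the series on M-values (0.02 to 0.18, adjusted p = 0.166), and of the alternatives run it passed only that over all positions with a value (0.15, adjusted p = 0.0282). The fourth (chr19:53313143-53313341, 26 positions, 14 of them read in every sample) was the member nearest to a change over time. The Ikaros samples had 2.75%, 2.15% and 2.08% at 0 h and 0% in all 3 at 24 h, without overlap. The Control samples had 2.91%, 0% and 1.40% at 0 h and 0%, 0% and 0.827% at 24 h, which overlapped. The 24 h minus 0 h difference was -1.18 on M-values in the Ikaros series (-1.69 to -0.68, limma adjusted p = 0.0664) and -0.65 in Control (adjusted p = 0.637). Without Control 0 h replicate 1 and Ikaros 24 h replicate 2 the Control difference was -0.29 (adjusted p = 1). In the Ikaros series it passed with the labels' batch as a block (adjusted p = 0.0155), with trend and robust moderation (0.0449) without the 3 libraries (0.0204) and without the 2 (0.0144), and when Control 0 h replicate 1, Control 0 h replicate 2 or Ikaros 24 h replicate 3 alone was left out. The difference stayed at -1.18 in all of these settings but the batch block, where it was -1.41. In the others only the spread and the adjustment changed, so these passes add no support for the change. Of the values of this cluster 69.4% were at or under 1%, the M-value limit. The different course of the series was not called here (smallest adjusted p of any member 0.879).

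Over the whole network, 3 of 23 clusters (2 of Mycn, 1 of Mycl) passed the series difference, against 4.84% of all 16734 clusters, or 2.94% of the 8141 clusters under 10%. All 3 were higher in the Ikaros series, a direction in which 3.71% of all clusters were called. The median difference was 0.07 on M-values over the members and 0.03 over all clusters, and 19 of 23 members against 63.6% of all clusters had a difference above 0. In percentage points, 6 members differed by over 1 point, which is 26.1% against 19.0% of all clusters, and 499 clusters of the table differed by more than the Mycn coding exon.

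**Figure D3:**
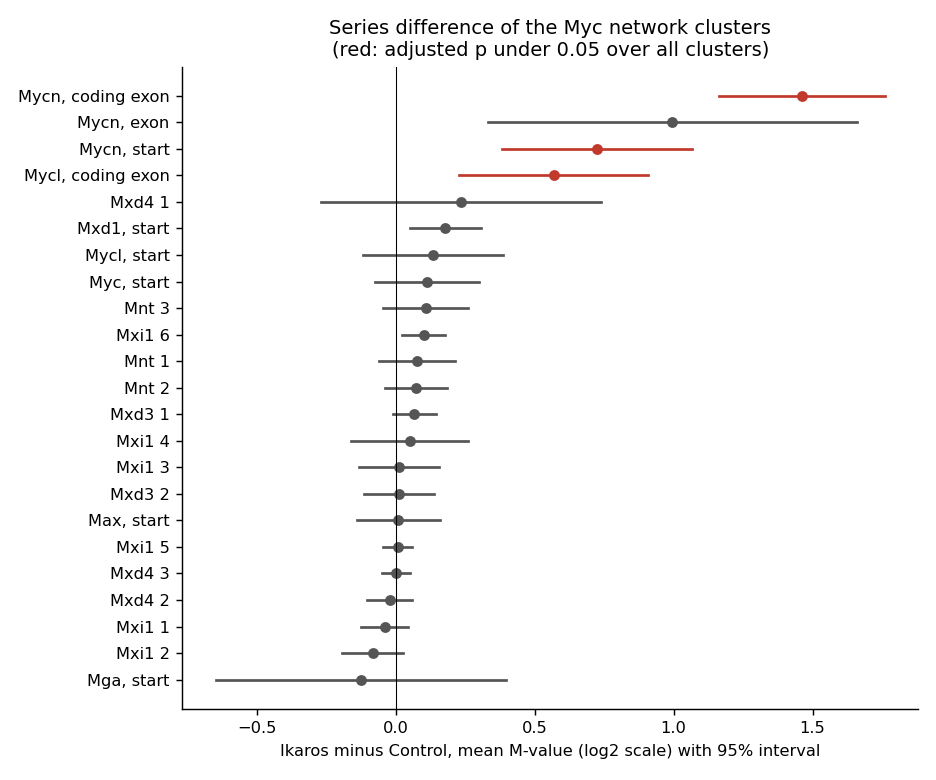
Difference of mean M-values (Ikaros minus Control, log2 scale, horizontal axis) with its 95% interval from limma for the 23 clusters; red marks an adjusted p under 0.05 over all clusters. The Mycn and Mycl coding exons and the Mycn start pass at 1.46, 0.57 and 0.72, and Myc lies at 0.11 with an interval across 0.

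Time was compared by limma within each series and between them. No member passed for change over time in the Ikaros series (0% of all clusters called) or in Control (0.012% called). At an unadjusted p under 0.05 there were 2 members against 5.22% of all clusters in the Ikaros series, and 0 members against 4.83% in Control. The same held for a different course of the series (0% called), with 2 members under the unadjusted threshold against 5.12% of all clusters. For 24 h against 0 h no member passed in the Ikaros series (0.0418% called) or in Control (0% called), and the unadjusted counts were 4 members against 11.2% of all clusters and 1 member against 6.82%. The 4 were the Mycl start, the Mga start, the fourth Mxi1 cluster and the cluster outside Mxd3. At 0 h alone, 0.215% of all clusters were called between the series and no member was. The unadjusted count at 0 h was 3 members against 9.55% of all clusters, namely the Mycn coding exon, the Mycn start and the fourth Mxi1 cluster. The Mycn coding exon then differed by 1.03 on M-values (0.30 to 1.75, unadjusted p = 0.00737, adjusted p = 0.282), with 3 samples a series. Its Ikaros samples at 0 h had 8.61%, 5.36% and 5.40% and its Control samples 7.30%, 2.52% and 2.02%. The Mycn start differed by 0.98 at 0 h (0.22 to 1.73, adjusted p = 0.339). Its Ikaros samples had 2.45%, 1.91% and 2.22%, all above the Control samples at 0%, 0.527% and 1.24%. The Mycl coding exon differed by 0.06 at 0 h (-0.80 to 0.91, adjusted p = 1), with means of 94.0% and 93.2%. Without Control 0 h replicate 1 the Ikaros minus Control difference of the means was -1.16 percentage points. From 0 h to 24 h the Mycn start went from 2.20% ± 0.271 to 0.885% ± 0.402 in the Ikaros series (adjusted p = 0.470). Over the same hours the Mycn coding exon went from 6.46% ± 1.87 to 9.25% ± 2.84 in the Ikaros series (adjusted p = 0.837) and from 3.95% ± 2.92 to 4.28% ± 2.99 in Control (adjusted p = 1). Without the 3 libraries these means were 6.46% and 8.39% in the Ikaros series and 2.27% and 2.56% in Control. The 0 h difference was then 1.21 on M-values and not called (adjusted p = 0.136, and 0.275 without the 2 libraries).

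**Figure D4:**
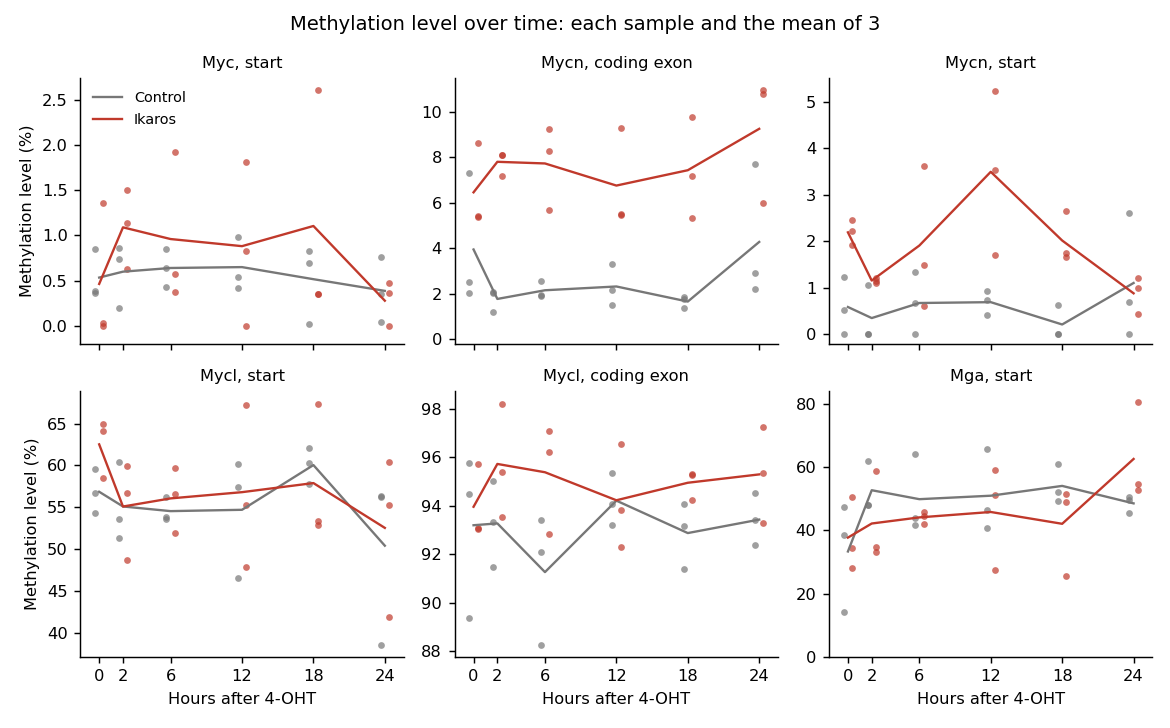
Methylation level in percent (vertical axis, a scale of its own in each panel) against hours after 4-OHT for 6 member clusters; points are samples, lines the means of 3 samples, grey Control and red Ikaros. The Mycn coding exon is higher in the Ikaros series by 2.51 points at 0 h, or 4.19 points without Control 0 h replicate 1, while Myc overlaps at every time point.

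Correlations were computed between the 6 member clusters of Mycn, Mycl and Mga with a mean level over 1%, or 15 pairs. Over the 36 samples the M-values of the Mycn coding exon correlated with those of the Mycn start at r = 0.553 and of the Mycl coding exon at r = 0.452. Within the 18 Ikaros samples the values were -0.320 and -0.0197, and within Control 0.726 and 0.113. The first of these rests on Control 24 h replicate 2, since without the 3 libraries it was 0.211, against 0.788 without the other two. The strongest value within a series was that of the Mycn coding exon with the Mycl start in Control, at r = -0.802 (-0.600 without the 3 libraries), while it was -0.0838 within the Ikaros series and -0.0860 over the 36 samples. Both clusters of a pair were read in the same libraries. The 5 clusters most like the Mycn coding exon over the 36 samples were near Zfp36 (r = 0.902), Zfp608 (0.875), Atxn1 (0.872), Mllt3 (0.865) and Sema5a (0.861). They were chosen by their likeness to a cluster that differed between the series, so their own series difference is a description. They had levels from 9.31% (Zfp36) to 44.2% (Sema5a) in Control and from 34.4% (Zfp36) to 69.2% (Mllt3) in the Ikaros series. For the Mycn start they were near Nol4l (0.707), Gm19684 (0.703), Ablim1 (0.699), Rpl23a (0.696) and Dennd4b (0.690), and neither Rpl23a nor Dennd4b was called in the series difference (adjusted p = 0.720 and 0.665). The 5 most like the Mycl coding exon were near Zfp277 (0.686), Wrap73 (0.686), Txnrd1 (0.677), Xrra1 (0.674) and Stk11 (0.666).

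Other genes of the pathway were read by their promoter clusters, 45 clusters of 33 of 40 genes in 4 lists. Of these, 37 lay under 10%, and 3 passed the series difference, or 6.67% against 4.84% of all clusters, 2 of them higher in the Ikaros series. A share this near to that of all clusters is no result about the lists. In the arm of Mlx, a Max-like protein, 1 of 5 clusters passed. It belongs to Mlxipl (ChREBP, a glucose-responsive factor) and had 92.4% ± 2.19 in the Ikaros series and 87.7% ± 2.77 in Control (limma adjusted p = 0.000297). Another Mlxipl cluster was the highest of this list (98.1%), and a cluster of Mlxip the lowest (0.210%).

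Among partners and corepressors 1 of 16 clusters passed, at Sin3b, the scaffold of the Sin3 deacetylase complex that Mxd proteins recruit. It had 11.7% ± 0.945 in the Ikaros series and 9.14% ± 0.848 in Control (adjusted p = 0.00108). Clusters of Zbtb17 (Miz1, through which Myc represses) were both the highest (97.8%) and the lowest (0.0628%) of the list. None of the 11 clusters of Myc turnover genes passed, and the lowest belonged to Gsk3b, a kinase that marks Myc for degradation (0.214%). Among Myc targets 1 of 13 clusters passed, at Cdkn2b, the p15 cell cycle inhibitor that Myc represses. It was lower in the Ikaros series, 0.463% ± 0.477 against 1.48% ± 0.638 (-0.49 on M-values, adjusted p = 0.00260). Its Ikaros mean lies under 1%, the lower limit of the M-values. The alternatives were not read for single clusters of the lists. The highest target was Tert (telomerase, 73.4%) and the lowest Ncl (nucleolin, 0.146%). None of these clusters passed a test over time or at 0 h. The median differences on M-values were 0.18, 0.06, 0.05 and 0.03 in the 4 lists, beside 0.03 over all clusters.

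Sequence features of the promoters were taken from the RefSeq windows of 300 bases, from 250 before to 50 after a start, for 9 of the 10 genes (11 windows; all but Myc). The E-box CACGTG, which Myc-Max and Mxd-Max bind and which reads the same on both strands, was found at Max, Mnt and Mxd4, or 3 of 11 windows against 7.15% of 32817 promoters. The letters GGGAA, the core of Ikaros sites, were found on either strand in 7 of 11 windows against 62.7% of promoters. In the member clusters the E-box was found in 4 of 23 against 11.4% of all clusters, and GGGAA in 16 of 23 against 68.5%. All 3 Mycn and both Mycl clusters held GGGAA and none held the E-box. The median ratio of observed to expected CpG was 0.731 in the windows of the members and 0.383 in all promoters, but 0.826 in the member clusters and 0.851 in all clusters. In the windows it was lowest at Mycn (0.584) and highest at a start of Mxi1 (1.19). A match says only that the letters are present.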

How the data were processed

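RRBS was measured in 36 samples of B3 cells. Per the study's methods, reads were trimmed, mapped with Bismark to GRCm38 and smoothed within CpG clusters by BiSeq. The submitters' processing notes name CASAVA, FastQC, Bismark 0.10.1, HTSeq and methylKit. Of the tables the authors deposited, 1 holds smoothed levels per position, each a fraction, and 1 holds the M-values (log2) made from levels cut off at 0.01 and 0.99. Neither table gives coverage, so no counting error can be given. Smoothing makes neighbouring positions alike, so a cluster was the unit.

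A cluster's value was the mean over positions with a value in all 36 samples. All 16734 clusters were fitted with limma 3.58.1 (R 4.3.3) on M-values, with Benjamini-Hochberg adjustment over all of them at 0.05, and an adjusted p in the text comes from these fits. The series difference was adjusted for time point, change over time had a moderated F test, and the different course used the interaction terms. Steps were tested on simulated data. Python 3.11.15 with numpy 2.4.6 and pandas 2.3.3 was used otherwise.

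Conditions, replicates and batches came from the labels. The labels put replicates 1 and 3 in batches 1 and 4 throughout, and replicate 2 in batch 2 at 0 h and batch 3 at the other times, so same-numbered samples of both series share a batch at each time point, which is where the pairing comes from. Deviations from condition means correlated at a mean r of -0.000326 between samples of the same number and 0.000183 between others. The members, gene lists, motifs and alternatives were chosen with earlier results of these data known. Leaving out 2 libraries for their empty and extreme values was added after the data were seen. The members follow from the list of 10 genes, the text names list clusters that passed a test or had the highest or lowest level of their list, and the 5 clusters most correlated with each called member. The result for 1 list cluster is not reported here. All sample columns were used. The other omics data of the study were not used here.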

Additional observations from a re-analysis of the deposited data

How the results depend on the processing

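The cluster in the Mycn coding exon was called in the series difference under every alternative that could test it. The number of member clusters called, 3 of 23, became 1 (Mycn coding exon) with the shares of empty and extreme values as covariates, and 0 of 2 tested among clusters at 10% to 90%. Over all positions with a value it stayed at 3, with the sixth Mxi1 cluster in place of the Mycl coding exon. It was 4 without the 2 libraries with the most empty or extreme values, a setting added after the data were seen, losing the Mycl coding exon and gaining the middle Mycn cluster and Mxd1. It ranged from 1 to 4 when 1 library or 1 replicate number was left out. Over all clusters the 810 calls became 335 with the covariates and 464 among clusters at 10% to 90%, and ranged from 368 to 863 when 1 library or replicate number was left out. The members numbered 19 with the gene body only and 21 with a flank of 2000 bp, and promoter clusters numbered 18 with a window of 500 bp.

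For 24 h against 0 h in the Ikaros series the 0 member calls became 1 (Mxi1) with the batch as a block, with trend and robust moderation, and without the 3 or the 2 libraries set apart, and ranged from 0 to 1 when samples were left out. Over all clusters its 7 calls became 13, 17, 74 and 83 under these settings and 11 with 1 value per CG, and ranged from 5 to 247 (highest without Ikaros 24 h replicate 3). In Control its 0 calls became 2 with the replicate number as a block or without the 2 libraries, 5 with the batch and 1 without the 3 libraries, and ranged from 0 to 38 (highest without Control 0 h replicate 2). The 36 calls at 0 h became 71 with levels, 74 at 10% to 90% and 66 without the 3 libraries, and ranged from 0 (without replicate 1) to 70 (without Control 0 h replicate 2). For change over time in the Ikaros series 0 calls became 1 without the 3 or the 2 libraries and ranged from 0 to 5. In Control 2 calls became 6 with the batch, 4 without the 2 libraries, 0 with levels or 1 value per CG and 1 with all positions, at 10% to 90% or without the 3 libraries, and ranged from 0 to 12 (highest without Control 0 h replicate 2). For a different course 0 calls became 1 with trend and robust moderation or at 10% to 90% and 7 without the 2 libraries, and ranged from 0 to 14 (highest without Ikaros 24 h replicate 3). Of the members, change over time in the Ikaros series and the different course had 0 to 1 calls with samples left out, the 1 call being the Mxd4 flank cluster without Ikaros 12 h replicate 1. The cause was not tested.

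Pairing by replicate number gave 2 member calls in the series difference in place of 3, losing the Mycl coding exon, and changed no other member call. The difference at Mga, not called, ranged from -0.28 to 0.000626 on M-values with a replicate number left out, and turned sign only without replicate 3. Under the other alternatives on M-values it ranged from -0.50 to -0.08 and was not called (limma adjusted p = 0.413 or more). Depth is unknown, and levels near 0 are limited by the M-value floor of 1%.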
